A study of Mus musculus with 9 samples.

Results

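The genes described here are 10 genes of cytosolic nucleic acid sensing, measured as RNA in cultured B16 cells, which are mouse melanoma cells. They were taken by symbol from the table of 21676 genes: the RNA sensors Ddx58, Ifih1 and Dhx58, the RNA-activated kinase Eif2ak2, the Z-nucleic acid sensor Zbp1, the DNA sensor Cgas, the adaptors Mavs and Sting1, and the kinases Tbk1 and Ikbke. All 10 had a row in the table and all 10 passed the filter on low counts that left 13807 genes for testing, Zbp1 only through its control libraries. Cells carried one of 2 hairpins, named shAD4-1 and shAD4-2 in the labels, or a control hairpin, and each group gave 3 libraries. The design text calls the hairpin groups knockdown derivatives, and ADGRL4, a receptor of the adhesion class, is named in the title. The targeted gene is not analysed here, and the groups rest on their labels alone. The labels do not say whether a derivative was a pool of cells or a single clone, so p-values measure the spread between libraries of one derivative per hairpin.

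Cells read foreign or misplaced RNA and DNA in the cytosol through a small number of receptors. RIG-I, the product of Ddx58, and MDA5, the product of Ifih1, bind double-stranded RNA and signal through MAVS, a protein of the outer mitochondrial membrane, while LGP2, the product of Dhx58, lacks their signalling domains and tunes their activity. The enzyme cGAS, made by Cgas, answers DNA by producing a cyclic dinucleotide that activates STING at the endoplasmic reticulum. Both routes meet at the kinases TBK1 and IKK-epsilon, which phosphorylate the factors that switch on type I interferon genes, and several of the sensors are themselves known as interferon-induced genes.

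Libraries held 35.8 to 36.9 M counted reads with shAD4-1, 31.3 to 36.4 M with shAD4-2 and 31.5 to 36.4 M in control. Reads of the 13 mitochondrially encoded protein genes made up 3.62 to 3.81% of a library with shAD4-1, 3.60 to 3.89% with shAD4-2 and 2.30 to 2.61% in control. Melanocyte markers were abundant in all groups, and all 8 listed genes were present, with summed levels of 10123 to 10341 CPM (counts scaled to a common library size) with shAD4-1, 10979 to 11997 CPM with shAD4-2 and 11285 to 12979 CPM in control. Of these 8 genes 7 were called lower and none higher with shAD4-1, where 32.3% of all tested genes were lower, and 2 lower and 2 higher with shAD4-2, where 34.8% were lower and 34.2% higher. Of 8 leukocyte markers 5 had a row, with a sum of 4.71 to 5.01, 3.96 to 4.69 and 3.54 to 3.93 CPM in shAD4-1, shAD4-2 and control libraries, most of it from Cd68, which had 498, 377 and 336 reads over these groups and was called higher with shAD4-1 (log2 fold change 0.53, adjusted p = 0.0048) and not with shAD4-2 (0.27, adjusted p = 0.127). Among the other leukocyte markers, Fcer1g had 28, 43 and 48 reads, Cd3e had 0, 1 and 1, and Ptprc had 1, 0 and 0. The 4 fibroblast markers with a row summed to 10.4 to 12.2 CPM with shAD4-1, 12.4 to 14.0 CPM with shAD4-2 and 5.08 to 7.10 CPM in control. Col1a2 (log2 fold change 2.62 with shAD4-1 and 3.08 with shAD4-2) and Col1a1 (0.70 and 0.92) were called higher with both hairpins, Pdgfra (0.23 and 0.05) with neither, and Lum had 1, 0 and 0 reads. Endothelial and keratinocyte markers stayed at or under 0.283 CPM in sum in every library. The mitochondrial share, the fibroblast sum and the leukocyte sum were higher in every library of either hairpin than in every control library, and the melanocyte sum was lower with shAD4-1 than in control without overlap. They moved with each difference from control given below, and their part in those differences was not tested.

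RefSeq promoter windows of 300 bases, running from upstream of the transcription start into the first transcribed bases in build GRCm38.p6, were found for 7 of the 10 genes. No window was matched to Dhx58, Zbp1 or Sting1. The search used exact symbols and did not cover every chromosome, so entries for these genes may have been missed. The authors' files use GRCm39, and the windows serve only as sequence. Those of Ddx58, Ifih1 and Eif2ak2 are shown because they hold the letters GAAANNGAA, the core of the interferon-stimulated response element, on either strand (in capitals). That of Tbk1 is shown beside them because it holds none.

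Ddx58, chr4:40239776-40240075, minus strand: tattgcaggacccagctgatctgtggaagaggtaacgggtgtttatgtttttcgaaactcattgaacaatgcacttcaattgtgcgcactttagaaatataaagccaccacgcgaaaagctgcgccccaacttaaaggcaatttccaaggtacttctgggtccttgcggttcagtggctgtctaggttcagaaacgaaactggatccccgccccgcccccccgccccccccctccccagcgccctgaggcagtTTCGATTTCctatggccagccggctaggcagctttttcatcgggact
Ifih1, chr2:62646206-62646505, minus strand: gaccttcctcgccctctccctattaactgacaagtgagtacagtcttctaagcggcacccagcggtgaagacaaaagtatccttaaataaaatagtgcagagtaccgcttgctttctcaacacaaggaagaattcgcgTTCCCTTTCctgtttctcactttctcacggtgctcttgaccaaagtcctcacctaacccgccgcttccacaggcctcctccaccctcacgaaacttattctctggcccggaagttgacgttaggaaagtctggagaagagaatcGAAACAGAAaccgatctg
Eif2ak2, chr17:78882523-78882822, minus strand: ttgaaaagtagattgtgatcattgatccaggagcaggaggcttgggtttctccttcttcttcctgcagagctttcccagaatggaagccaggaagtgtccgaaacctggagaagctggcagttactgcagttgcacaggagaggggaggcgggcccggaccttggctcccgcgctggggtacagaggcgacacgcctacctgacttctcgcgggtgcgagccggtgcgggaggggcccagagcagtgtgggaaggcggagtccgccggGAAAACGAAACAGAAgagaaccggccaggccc
Tbk1, chr10:121586745-121587044, minus strand: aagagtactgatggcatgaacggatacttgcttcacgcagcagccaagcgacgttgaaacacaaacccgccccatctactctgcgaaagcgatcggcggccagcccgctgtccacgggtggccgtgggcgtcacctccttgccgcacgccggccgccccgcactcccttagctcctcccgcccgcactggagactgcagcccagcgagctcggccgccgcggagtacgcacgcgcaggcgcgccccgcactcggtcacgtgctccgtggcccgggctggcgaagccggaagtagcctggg

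With the first transcribed base as 1, the Ddx58 match began at base 4, read on the opposite strand. Ifih1 had a match at base -112 on the opposite strand and another at base 33. Eif2ak2 had matches at bases 19 and 25 that overlapped each other. The windows of Cgas, Mavs, Tbk1 and Ikbke had none, and 8.56% of all 32851 windows in the table had at least 1. The gamma-activated site letters TTCNNNGAA, which read the same on both strands, were present only in the Eif2ak2 window among the 7, and in 8.3% of all windows. The TATA box letters TATAAA on the forward strand were present only in the Ddx58 window, and in 8.32% of all. These matches are letters in a fixed window and were not tested as binding sites.

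The sensors that read RNA fell with each hairpin, while the adaptors and most of the kinases stayed near their control levels. With shAD4-1 6 of the 10 genes were called lower (Ddx58, Ifih1, Dhx58, Eif2ak2, Zbp1 and Cgas) and none higher in edgeR's quasi-likelihood test, against 32.3% of all tested genes called lower. With shAD4-2 5 were called lower (the same genes other than Cgas) and Tbk1 was called higher, against 34.8% of all tested genes called lower and 34.2% higher. The same 5 genes were at least 2-fold lower with either hairpin, a size reached by 6.2% of tested genes with shAD4-1 and 8.34% with shAD4-2. The median log2 fold change of the 10 genes was -0.79 with shAD4-1 and -0.73 with shAD4-2, beside -0.01 over all tested genes in both comparisons. Zbp1 had too few reads in the hairpin libraries to reach the filter there, so its call was tied to the filter. Without it 5 of 9 genes were lower with shAD4-1 and 4 of 9 with shAD4-2, 4 of them at least 2-fold with either hairpin, and the median of the 9 was -0.36 for shAD4-1 and -0.26 for shAD4-2 on the log2 scale. Both comparisons use the same 3 control libraries. In RNA from a whole culture, fewer cells with a transcript and less of it per cell cannot be told apart.

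**Figure D1:**
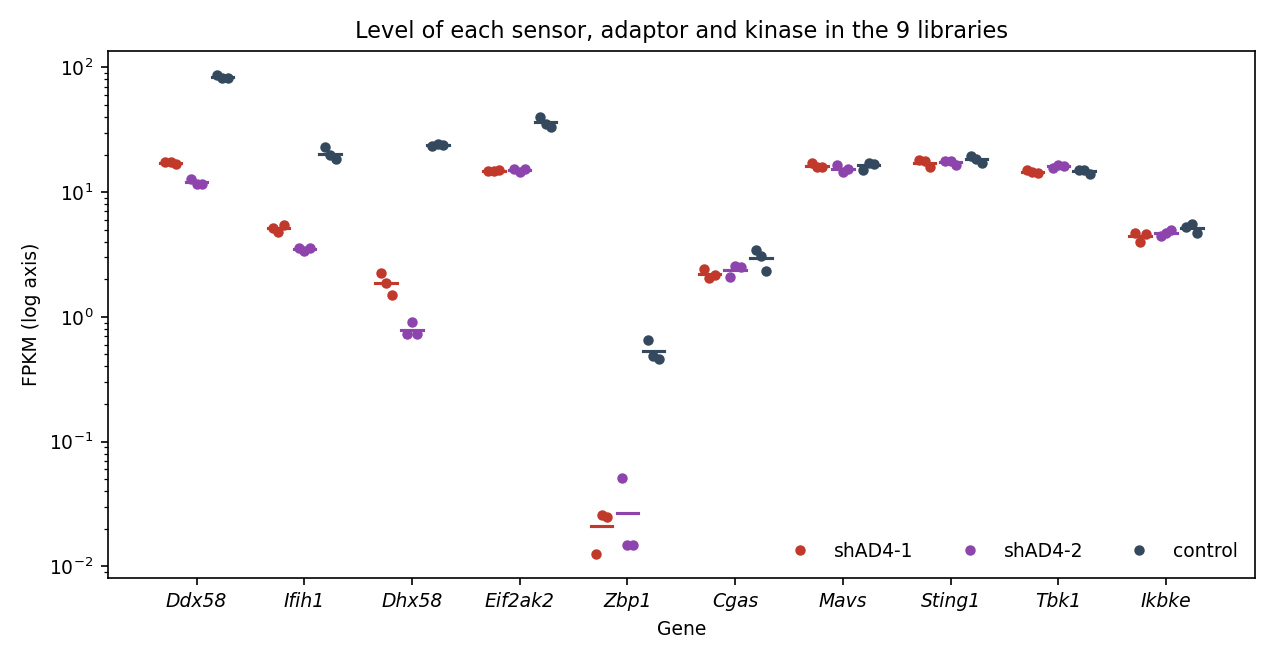
FPKM on a log axis (vertical) of each of the 10 genes (horizontal) in the 3 shAD4-1, 3 shAD4-2 and 3 control libraries; each point is a library and each bar a group mean. Ddx58, Ifih1, Dhx58, Eif2ak2 and Zbp1 lie lower in all hairpin libraries than in all control libraries, while the points of Mavs, Sting1 and Ikbke overlap between groups.

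Ddx58 encodes RIG-I, the receptor of short double-stranded RNA with a triphosphate end. It stood at 17.4, 17.5 and 16.8 FPKM (reads scaled to gene length and library total, as deposited) in the shAD4-1 libraries, at 12.6, 11.5 and 11.7 FPKM in the shAD4-2 libraries and at 87.2, 81.7 and 81.9 FPKM in the control libraries. The 3 groups did not overlap. Its log2 fold change from control was -2.22 with shAD4-1 (SE 0.043, adjusted p = 9.75e-18), a 4.65-fold fall, and -2.75 with shAD4-2 (SE 0.045, adjusted p = 4.2e-19), a 6.73-fold fall.

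Ifih1 encodes MDA5, the receptor of long double-stranded RNA. Its libraries read 5.19, 4.78 and 5.48 FPKM with shAD4-1, 3.56, 3.35 and 3.57 FPKM with shAD4-2 and 22.8, 19.7 and 18.5 FPKM in control. Here too each group lay apart from the other groups. The log2 fold change was -1.92 with shAD4-1 (SE 0.07, adjusted p = 4.88e-14) and -2.48 with shAD4-2 (SE 0.073, adjusted p = 1.95e-15), so the transcript was 3.79-fold lower with shAD4-1 and 5.60-fold lower with shAD4-2.

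Dhx58 encodes LGP2, the regulator of the other helicases. It gave 2.24, 1.87 and 1.51 FPKM in shAD4-1 libraries, 0.730, 0.901 and 0.732 FPKM in shAD4-2 libraries and 23.2, 24.2 and 23.9 FPKM in control libraries. No library of one group reached the range of another. Among the 3 helicases its falls were the largest in size, with a log2 fold change of -3.61 with shAD4-1 (SE 0.099, adjusted p = 8.71e-16) and -4.86 with shAD4-2 (SE 0.11, adjusted p = 7.84e-17), or 12.2-fold with shAD4-1 and 29.1-fold with shAD4-2. Relative to Ddx58 in the same library, per length, Dhx58 stood at 0.108 ± 0.0193 with shAD4-1, 0.0663 ± 0.0108 with shAD4-2 and 0.285 ± 0.0161 in control (SD, n = 3).

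Eif2ak2 encodes PKR, a kinase that binds double-stranded RNA and halts translation by phosphorylating eIF2alpha. It read 14.8, 14.6 and 14.99 FPKM with shAD4-1, 15.4, 14.5 and 15.3 FPKM with shAD4-2 and 39.9, 35.3 and 33.2 FPKM in control. The hairpin libraries overlapped each other and all lay below the controls. The fold change against control was -1.23 on the log2 scale with shAD4-1 (SE 0.053, adjusted p = 5.87e-13) and -1.21 with shAD4-2 (SE 0.053, adjusted p = 6.11e-13), so the transcript was 2.34-fold lower with shAD4-1 and 2.31-fold lower with shAD4-2. The difference between the hairpins was -0.02 (shAD4-1 minus shAD4-2), with a 95% confidence interval from -0.13 to 0.09.

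Zbp1, a sensor of Z-form nucleic acids that can start necroptosis, was scarce in all libraries. It had 1, 2 and 2 reads in shAD4-1 libraries, 4, 1 and 1 reads in shAD4-2 libraries and 44, 36 and 36 reads in control libraries. The highest hairpin library was far below the lowest control library. The summed ratio to control was 0.042 with shAD4-1 (exact 95% counting interval 0.0134 to 0.101) and 0.0555 with shAD4-2 (0.020 to 0.125), and these intervals cover counting error only. The sizes rest on 5 reads with shAD4-1 and 6 with shAD4-2, and Zbp1 entered the test only because it was high in control, so its p-values are not given as support. Without shAD4-2 replicate 1, which held 4 of the 6 reads, the fitted log2 fold change with shAD4-2 was -4.95, against -4.11 with all libraries.

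Cgas, the cytosolic DNA sensor, changed little. Its 3 libraries gave 2.42, 2.06 and 2.15 FPKM with shAD4-1, 2.07, 2.56 and 2.49 FPKM with shAD4-2 and 3.45, 3.10 and 2.33 FPKM in control. Control replicate 3 lay inside the range of the hairpin libraries. The log2 fold change was -0.36 with shAD4-1 (SE 0.13, adjusted p = 0.0205) and -0.26 with shAD4-2 (SE 0.13, adjusted p = 0.0804, 95% confidence interval -0.53 to 0.01). The shAD4-1 call was lost without control replicate 1 (log2 fold change -0.23, adjusted p = 0.0975), control replicate 2 (-0.31, 0.078), shAD4-1 replicate 2 (-0.31, 0.0822) or shAD4-1 replicate 3 (-0.34, 0.0611), while without control replicate 3 it was -0.50 (0.00084). With shAD4-2 a call appeared without control replicate 3 (-0.40, 0.00499), and the value was -0.13 (0.343) without control replicate 1 and -0.17 (0.314) without shAD4-2 replicate 1.

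The adaptors were not called in any comparison. Mavs, the adaptor of RIG-I and MDA5, stood at 17.0, 15.999 and 15.9 FPKM with shAD4-1, 16.3, 14.6 and 15.4 FPKM with shAD4-2 and 15.1, 17.1 and 16.8 FPKM in control, with overlapping ranges. Its log2 fold change was 0.05 with shAD4-1 (95% confidence interval -0.07 to 0.17, adjusted p = 0.425) and -0.03 with shAD4-2 (-0.15 to 0.10, adjusted p = 0.697). Sting1, the adaptor of cGAS, read 18.0, 17.6 and 16.02 FPKM with shAD4-1, 17.7, 17.7 and 16.6 FPKM with shAD4-2 and 19.4, 18.4 and 17.0 FPKM in control, again overlapping. Its log2 fold change was -0.03 (-0.16 to 0.10, adjusted p = 0.729) with shAD4-1 and -0.02 (-0.15 to 0.11, adjusted p = 0.793) with shAD4-2. For both adaptors the intervals leave out a change of 2-fold in either direction.

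Of the kinases, Tbk1 gave 15.1, 14.4 and 14.1 FPKM with shAD4-1, 15.6, 16.6 and 16.1 FPKM with shAD4-2 and 15.1, 15.1 and 14.1 FPKM in control. The shAD4-2 libraries lay just above the others. Tbk1 rose 1.13-fold with shAD4-2 (log2 fold change 0.18, SE 0.053, adjusted p = 0.00532) and was not called with shAD4-1 (0.04, 95% confidence interval -0.07 to 0.15, adjusted p = 0.549). Ikbke, which encodes IKK-epsilon, stood at 4.68, 3.97 and 4.63 FPKM with shAD4-1, 4.44, 4.67 and 4.92 FPKM with shAD4-2 and 5.24, 5.52 and 4.68 FPKM in control. Its groups overlapped, and it was called with neither hairpin (log2 fold change -0.16, 95% confidence interval -0.33 to 0.02, adjusted p = 0.105 with shAD4-1, and -0.08, -0.26 to 0.09, adjusted p = 0.387 with shAD4-2). With shAD4-1 it was called lower without control replicate 3 (log2 fold change -0.22, adjusted p = 0.0351), and the value was -0.094 (adjusted p = 0.396) without control replicate 2 and -0.084 (adjusted p = 0.426) without shAD4-1 replicate 2.

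**Figure D2:**
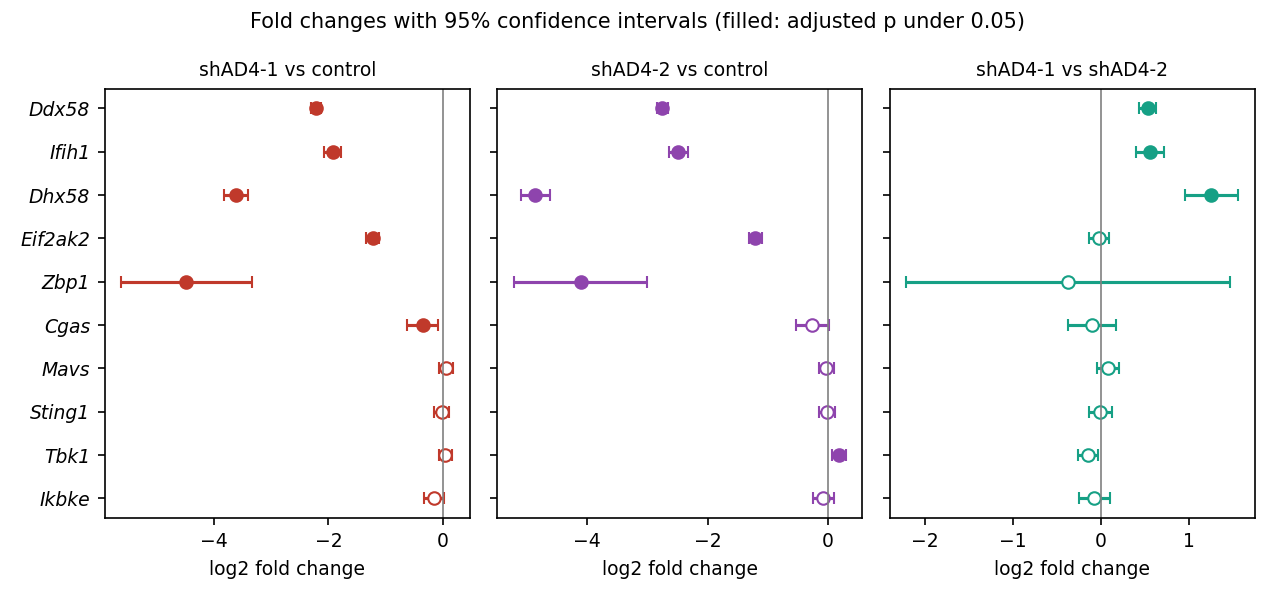
Log2 fold changes (horizontal) of the 10 genes (vertical) for shAD4-1 against control, shAD4-2 against control and shAD4-1 against shAD4-2, with 95% confidence intervals from the edgeR fit; each panel has its own scale, and filled points have an adjusted p under 0.05. Ddx58, Ifih1, Dhx58, Eif2ak2 and Zbp1 lie left of 0 in both panels against control, and the 3 helicases lie right of 0 between the hairpins.

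The direct comparison of the hairpins asked whether the 2 derivatives differed in these genes. The 3 helicase sensors were higher with shAD4-1 than with shAD4-2 and the other 7 genes were not called, against 27.4% of all tested genes called in either direction, 14% called higher and 13.4% lower. In the opposite direction none of the 10 genes was called lower by 2-fold or more, as were 0.319% of all tested genes. Ranked from the lowest log2 difference to the highest among 13807 tested genes, Dhx58 stood at 13647, Ifih1 at 12919 and Ddx58 at 12847. Ddx58 was 1.45-fold higher with shAD4-1 (log2 difference 0.53, SE 0.045, adjusted p = 2.57e-07), Ifih1 1.48-fold (0.56, SE 0.076, adjusted p = 3.46e-05) and Dhx58 2.39-fold (1.25, SE 0.14, adjusted p = 6.96e-06). For Zbp1 the interval of the difference ran from -2.21 to 1.47 on the log2 scale, so at this depth a difference of several fold either way was not detectable. Tbk1 was near the threshold, at a log2 difference of -0.14 (adjusted p = 0.0503), and was called in 10 of 20 alternative settings.

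The order of the genes by FPKM, the scale on which genes of different length can be set side by side, differed between groups. In control the order was Ddx58 (83.6 ± 3.12 FPKM), Eif2ak2 (36.1 ± 3.43), Dhx58 (23.8 ± 0.490), Ifih1 (20.3 ± 2.21), Sting1 (18.3 ± 1.23), Mavs (16.3 ± 1.07), Tbk1 (14.7 ± 0.597), Ikbke (5.15 ± 0.429), Cgas (2.96 ± 0.570) and Zbp1 (0.529 ± 0.102) (SD, n = 3). In that order the ranges of Ifih1 and Sting1 overlapped, and so did those of Sting1 and Mavs. With shAD4-1 Ddx58 (17.2 ± 0.399), Sting1 (17.2 ± 1.05) and Mavs (16.3 ± 0.594) overlapped at the top. By its mean Dhx58 stood above only Zbp1 there, though its range overlapped that of Cgas. With shAD4-2 Sting1 (17.3 ± 0.650), Tbk1 (16.1 ± 0.491), Mavs (15.4 ± 0.896) and Eif2ak2 (15.03 ± 0.487) stood above Ddx58, each overlapping its neighbour in the order, and Ddx58 was the fifth at 11.9 ± 0.612 FPKM. Per unit of Mavs in the same library, Ddx58 stood at 1.06 ± 0.0337 with shAD4-1, 0.774 ± 0.0153 with shAD4-2 and 5.14 ± 0.546 in control. For Ifih1 that ratio was 0.316 ± 0.0245, 0.227 ± 0.00794 and 1.25 ± 0.222 in shAD4-1, shAD4-2 and control libraries.

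Some exons of Dhx58, Eif2ak2, Cgas and Ikbke are overlapped by genes on the opposite strand in GENCODE M21, for 47 to 201 bases each. The sources used here do not say whether the counting used strand, so reads from such partners could not be told apart in these stretches. The deposited annotation places 7 of the 10 genes in the RIG-I-like receptor pathway and 7 in the cytosolic DNA-sensing pathway. Defense response to virus was carried by 9 of them, beside 142 of all tested genes, and double-stranded RNA binding by 5 (Ddx58, Ifih1, Dhx58, Eif2ak2 and Zbp1), beside 64 of all tested genes.

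Cofactors of RNA sensing moved in both directions. Of 29 tested genes in that list 12 were called lower and 13 higher with shAD4-1, and 11 lower and 15 higher with shAD4-2, with a median log2 fold change of 0.0024 with shAD4-1 and 0.12 with shAD4-2 beside -0.01 over all genes; 65% of all tested genes were called with shAD4-1 and 69% with shAD4-2. Ddx60, a helicase that aids RIG-I, averaged 1.70 ± 0.201 CPM with shAD4-1, 0.817 ± 0.225 CPM with shAD4-2 and 66.2 ± 4.78 CPM in control (SD, n = 3). Adar, which edits double-stranded RNA and so limits sensing by MDA5, averaged 139 ± 3.70 CPM with shAD4-1, 139 ± 2.75 CPM with shAD4-2 and 233 ± 10.7 CPM in control, falling 1.68-fold with either hairpin. In contrast Dhx15, another helicase, rose 1.89-fold with shAD4-1 and 2.26-fold with shAD4-2, and Pcbp1, an RNA-binding protein, rose 1.66-fold with shAD4-1 and 1.64-fold with shAD4-2. The ubiquitin ligases of the list, named after their values were seen, went both ways or changed little. Itch was not called with shAD4-1 (log2 fold change 0.019, adjusted p = 0.709). With shAD4-2 it was called slightly higher (0.14, adjusted p = 0.00942). Trim25 and Rnf135 fell, Trim25 2.04-fold with shAD4-1 and 2.32-fold with shAD4-2, and Rnf135 1.67-fold with shAD4-1 and 1.54-fold with shAD4-2. Rnf122 fell too, by a log2 fold change of -1.04 with shAD4-1 (adjusted p = 0.000882) and -1.53 with shAD4-2 (adjusted p = 2.79e-05). Rnf125 rose by 2.84 on the log2 scale with shAD4-1 and 1.99 with shAD4-2. It had 83 reads with shAD4-1, 42 with shAD4-2 and 11 in control. With so few control reads Rnf125 passed the filter only through hairpin libraries, so its p-values are not given as support. Its calls are included in the counts of this list. Adjusted p-values of Ddx60, Adar, Dhx15, Pcbp1, Trim25 and Rnf135 against control were at most 1.98e-05.

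In the DNA sensing list of 25 tested genes, 13 were lower and 11 higher with shAD4-1, and 11 lower and 10 higher with shAD4-2 (median log2 fold change -0.15 with shAD4-1 and -0.05 with shAD4-2), beside 32.3% lower and 32.7% higher of all tested genes with shAD4-1 and 34.8% lower and 34.2% higher with shAD4-2. Ifi204, a p200 family DNA sensor with close relatives whose reads may be shared, stood at 0.157 ± 0.0682 CPM with shAD4-1, 0.0679 ± 0.0616 CPM with shAD4-2 and 4.69 ± 0.903 CPM in control; with 17, 7 and 489 reads in shAD4-1, shAD4-2 and control libraries it passed the filter only through control. Samhd1, which depletes nucleotides, fell 1.83-fold with shAD4-1 and 1.90-fold with shAD4-2, and Lamtor5 fell 1.59-fold with shAD4-1 and 1.46-fold with shAD4-2. Enpp1, which degrades the cGAS product, rose to 9.61 ± 0.215 CPM with shAD4-1 and 8.37 ± 1.58 CPM with shAD4-2, against 3.09 ± 0.218 CPM in control. Nlrc3, with 116, 107 and 18 reads over the shAD4-1, shAD4-2 and control groups, could not pass the filter through control alone. Nor could Aim2, with 65, 16 and 10 reads. The counts above include the calls of Ifi204, Nlrc3 and Aim2, which are tied to the filter and are no support.

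**Figure D3:**
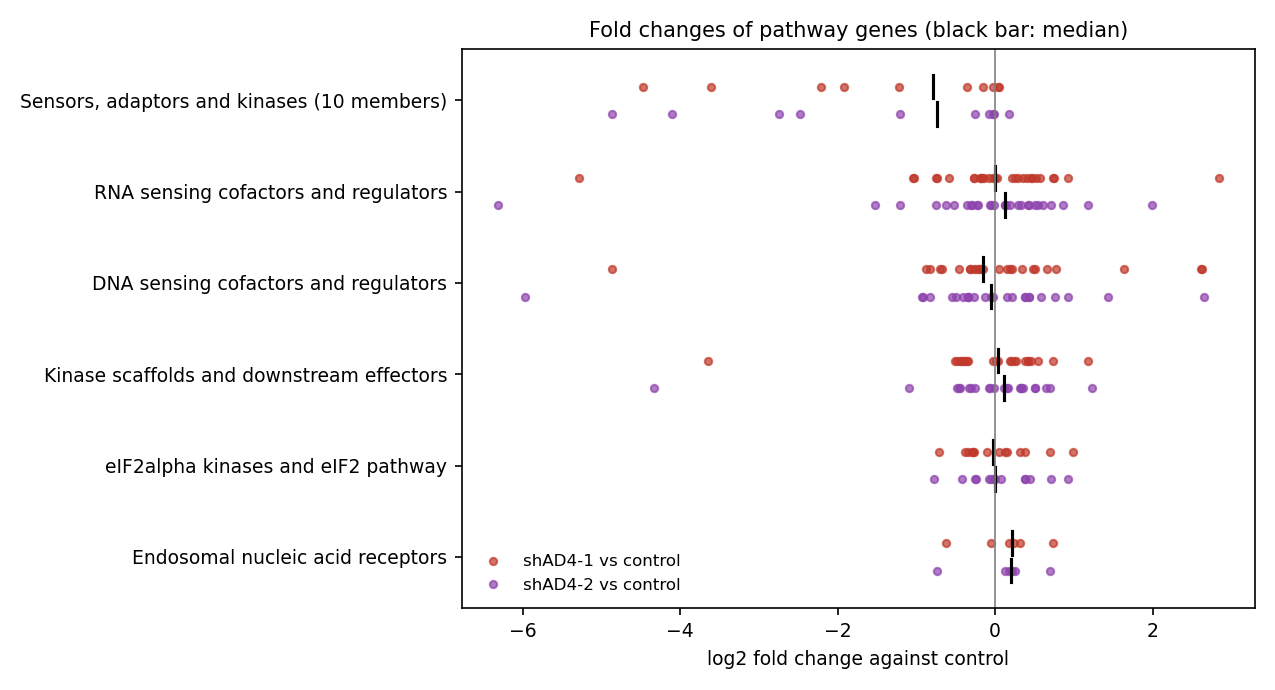
Log2 fold changes against control (horizontal) of the 10 genes and of 5 lists of pathway genes (vertical), with shAD4-1 above shAD4-2 in each row; points are tested genes and black bars are medians. The medians of the 5 lists lie between -0.15 and 0.21, and that of the 10 genes at -0.79 and -0.73. Without Zbp1, which passed the filter only through control, the members' median was -0.36 with shAD4-1 and -0.26 with shAD4-2.

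Downstream of the adaptors, 7 of 23 tested scaffolds and effectors were lower and 11 higher with either hairpin (median log2 fold change 0.03 with shAD4-1 and 0.11 with shAD4-2). Over all tested genes 32.3% were lower and 32.7% higher with shAD4-1, and 34.8% lower and 34.2% higher with shAD4-2. The share of lower genes was thus near the background, and that of higher genes, 11 of 23, was above it. That excess was not tested. Irf7, the interferon-inducible factor that amplifies interferon production, averaged 3.45 ± 0.263 CPM with shAD4-1, 2.14 ± 0.547 CPM with shAD4-2 and 43.5 ± 3.74 CPM in control, a fall of 12.6-fold with shAD4-1 and 20.2-fold with shAD4-2. Irf3, the factor that TBK1 activates first and which was named after its values were seen, was not called, with 33.4 ± 1.73, 33.8 ± 1.23 and 34.0 ± 1.82 CPM in shAD4-1, shAD4-2 and control cells. Ripk1, a kinase of death receptor and sensor complexes, rose 2.27-fold with shAD4-1 and 2.35-fold with shAD4-2, its partner Fadd rose 1.67-fold with shAD4-1 and 1.56-fold with shAD4-2, and Nfkb1, an NF-kB subunit, rose 1.37-fold with shAD4-1 and 1.62-fold with shAD4-2. Ripk3, the kinase through which ZBP1 signals, had 0, 1 and 0 reads over the shAD4-1, shAD4-2 and control groups and was not tested.

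Around Eif2ak2, the list of the other eIF2alpha kinases and of eIF2 and its regulators had 6 of 14 genes lower and 6 higher with shAD4-1, and 4 lower and 5 higher with shAD4-2 (median log2 fold change -0.031 with shAD4-1 and -0.0036 with shAD4-2). With shAD4-2 these counts were near the background of 34.8% lower and 34.2% higher, which with shAD4-1 was 32.3% and 32.7%. Eif2s2, the beta subunit of eIF2, fell 1.63-fold with shAD4-1 and 1.71-fold with shAD4-2. Eif2b3, a subunit of its exchange factor, rose 1.98-fold with shAD4-1 and 1.90-fold with shAD4-2, Ppp1r15a, a phosphatase subunit that reverses eIF2alpha phosphorylation, rose 1.62-fold with shAD4-1 and 1.64-fold with shAD4-2, and Dnajc3, a chaperone that inhibits PKR, rose 1.25-fold with shAD4-1 and 1.30-fold with shAD4-2.

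Of the endosomal receptors of nucleic acids and their adaptors, 6 genes were tested, of which 1 was lower and 4 higher with shAD4-1 and 1 lower and 3 higher with shAD4-2 (median log2 fold change 0.21 with shAD4-1 and 0.20 with shAD4-2), with the same background of 32.3% lower and 32.7% higher with shAD4-1 and 34.8% lower and 34.2% higher with shAD4-2. Tlr3, the endosomal receptor of double-stranded RNA, fell 1.55-fold with shAD4-1 and 1.67-fold with shAD4-2. Of the signalling kinases, Irak4 rose 1.67-fold with shAD4-1 and 1.63-fold with shAD4-2, and Irak1 rose 1.13-fold with shAD4-1 and 1.19-fold with shAD4-2. Unc93b1, which carries the receptors to endosomes, rose 1.18-fold with shAD4-1 and 1.16-fold with shAD4-2, though its shAD4-2 and control libraries overlapped.

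The interferon genes at the end of these routes were barely read. Of 21 listed genes 5 had a row and none passed the filter on low counts. Over the shAD4-1, shAD4-2 and control groups, Ifnz had 12, 10 and 8 reads and Ifne had 4, 4 and 2. Ifna2 had 0, 1 and 0 reads and Ifna4 had 0, 0 and 1. Of the 5 genes, Ifnb1 alone is described by library. Ifnb1, which encodes interferon beta, had 0, 0 and 4 reads in shAD4-1 libraries, 0, 1 and 0 reads in shAD4-2 libraries and 5, 13 and 6 reads in control libraries. Every control library was above every hairpin library. The summed ratio to control was 0.162 with shAD4-1 (exact 95% counting interval 0.041 to 0.473) and 0.0447 with shAD4-2 (0.00109 to 0.274), and these intervals, too, cover counting error only. All 4 shAD4-1 reads came from replicate 3, and the other 2 libraries had 0.

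The genes whose pattern over the 9 libraries lay closest to that of each falling sensor were found by the root mean square difference of centred log2 CPM, among about 10400 genes averaging at least 5 CPM. Nearest to Ddx58 were Helz2 (0.11) and H2-T22 (0.12), and nearest to Ifih1 were Helz2 (0.081) and Ifitm3 (0.094), where the median gene lay 1.20 and 1.08 away. Nearest to Dhx58 were Oas1a (0.26) and Gbp3 (0.28), to Eif2ak2 Igsf11 (0.070) and Nmi (0.071), and to Zbp1 Lgals9 (0.36) and Igtp (0.38), with median distances of 2.07, 0.595 and 1.66 in that order. These distances are a description of 9 libraries in 3 groups, and reads of the family members H2-T22, Oas1a, Gbp3, Ifitm3 and Igtp may be shared with relatives. The distances of Zbp1 also depend on the prior count of 2, since it had so few reads in hairpin libraries. Its fitted log2 fold changes were -4.48 with shAD4-1 and -4.11 with shAD4-2. Those of Lgals9 were -3.23 and -3.75, and those of Igtp -3.45 and -3.97.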

How the data were processed

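The 9 libraries, 3 per group, were made from B16 RNA with a VAHTS kit (Universal V6), per the labels' protocols. Reads were handled with fastp, HISAT2 and HTSeq on build GRCm39, as the submitters' processing notes list them. Tool versions, annotation and strand setting are absent from those notes. Gene counts, as whole numbers, and FPKM were deposited by the authors. The FPKM follow from the deposited counts, the column sums and 1 length per gene. Columns were matched to groups by name and hairpin number.

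The count test was edgeR 4.0.16 under R 4.3.3 (filterByExpr by group, TMM scaling, glmQLFit and glmQLFTest, 1 model of group for the 9 libraries), with Benjamini-Hochberg adjustment over 13807 tested genes and a threshold of 0.05. Each SE was derived from the fold change and its F statistic. CPM values are TMM-scaled. FPKM values are as deposited and were used to set genes side by side. Log2 CPM used a prior count of 2. The analysis was tested on simulated data.

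The 10 genes, the pathway and marker lists and the tests were chosen with earlier results of these data known. Named pathway genes are the 4 per list with the smallest value of the larger adjusted p against control, and named patterns are the 2 nearest genes per gene called with both hairpins. Other settings tried were upper-quartile and RLE scaling, no filter or 1 CPM in 3 libraries, DESeq2 1.42.0, limma 3.58.1 on log2(FPKM + 1) and log2(FPKM + 0.1), also with at least 1 FPKM in 3 libraries, a fit of each pair of groups alone, a replicate block and each library left out. Leaving out the 13 mitochondrially encoded genes was added after the data were seen.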

Additional observations from a re-analysis of the deposited data

Results flagged for a closer look

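The effects of the 2 hairpins differed for 3 of the 10 genes by the contrast between them, a share near the 27.4% of all tested genes called in this contrast. The log2 difference of shAD4-1 from shAD4-2 was 0.53 for Ddx58 (adjusted p = 2.57e-07), 0.56 for Ifih1 (adjusted p = 3.46e-05) and 1.25 for Dhx58 (adjusted p = 6.96e-06), in edgeR with n = 3 libraries each. In each case all 3 shAD4-1 libraries lay above all 3 shAD4-2 libraries. The genes were picked by this same contrast, so that separation is no further support. Each hairpin is represented by a single derivative, so the hairpin and the derivative cannot be told apart.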

How the results depend on the processing

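All counts of called genes and of called members stayed within 1.5 times their values in the 20 alternatives, and Ddx58, Ifih1, Dhx58 and Eif2ak2 stayed past the threshold against control in each. Zbp1 stayed called in the 18 alternatives in which it was tested, but it reached the main filter only in control, so these calls are no support. The settings that asked for at least 1 CPM or 1 FPKM in 3 libraries left Zbp1 out. On log2(FPKM + 1) its log2 fold change shrank to -0.58 with shAD4-1 and -0.57 with shAD4-2, since the added constant exceeds its level. On that scale Dhx58 was -3.12 with shAD4-1 and -3.79 with shAD4-2, and its difference between hairpins was 0.68. Of 593 alternative fold changes of the members none reversed past the threshold, 4 lost their call and 16 gained one, all of Cgas, Tbk1 or Ikbke. Besides those given above, Cgas with shAD4-2 was called with upper-quartile scaling (log2 fold change -0.29) and with no filter (-0.25). Same-numbered libraries of different groups did not deviate together from their group means (correlations from -0.12 to 0.0022 across genes). Whether they were grown or prepared together cannot be read from this, and the labels do not say. With the replicate block 6 members were called lower with shAD4-1, 5 with shAD4-2 and 3 differed between hairpins, and 8833, 9375 and 3511 genes were called in all. Chi-square per degree of freedom between libraries of a group ran from 2.95 to 17.6, and the highest values were those of control replicate 1. Depth limits Zbp1 and Ifnb1.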
